A study of Mus musculus with 42 samples.

Results

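The genes Rtkn2, Chac2, Taf12, Prrg2 and Phyhd1 gave high values in most normal skins and low values in carcinomas, high-risk papillomas and low-risk papillomas of mouse skin. They were found by their names in the array annotation and are 5 of 14442 gene symbols on the first array design, where they have 6 of 21997 probes. Prrg2 has 2 of these, and the other genes have 1 each. On the second design, 5 of 36924 probes name 3 of the genes, with 3 probes for Taf12 and 1 each for Chac2 and Prrg2. The genes were chosen because the 3 tumour groups lay below normal skin on these same arrays, so the differences between tumours and skin are given as a description with no test.

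The study hybridised whole-tissue RNA on 2-colour oligonucleotide arrays, each against one universal mouse reference RNA, and set benign papillomas of low and high risk beside malignant squamous cell carcinomas. There were 6 carcinomas, 10 high-risk papillomas and 9 low-risk papillomas, 1 of the last on 2 arrays, from female Sencar mice given DMBA, a mutagen that initiates tumours, and TPA, which promotes them, with an age label of 7 to 8 weeks at initiation. The 6 normal skins came from adult mice labelled as having had no treatment, and their strain, sex and age in weeks are not given. A further 10 papillomas from DMBA- and TPA-treated female Sencar mice, on the second design, carry no risk label. How risk was assigned is not stated in the labels, nor is whether skins and tumours came from separate animals throughout, so p-values measure only the spread between these samples. The codes of 8 tumours, 6 high-risk and 2 low-risk papillomas, form 4 pairs that differ only in a last letter, and the labels do not say whether a pair came from 1 animal. With that code as a random block in limma, 0 of the 5 genes passed between tumour groups, as without it. The labelled arrays held values for 16286 to 21494 probes, and precision is limited by how many arrays there are. All values below are log2 of sample over reference, so 1 unit is a doubling, and the direction was inferred. As deposited, keratinocyte genes had medians below 0 and genes of internal organs medians above 0 on 31 of 31 labelled arrays whose sample was in Cy3, and the dye-swapped array had 2.11 and -0.29.

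The 5 proteins do not belong to one pathway. Rtkn2 is a relative of Rtkn, an intracellular signalling protein. Chac2 is a gamma-glutamylcyclotransferase that breaks down glutathione, the main small thiol that buffers oxidants in cells. Taf12 is a histone-fold subunit of TFIID, the complex that places RNA polymerase II at promoters, and of the SAGA coactivator. Prrg2 is a membrane protein with a Gla domain, the vitamin K-dependent calcium-binding module known from clotting factors. Phyhd1 resembles phytanoyl-CoA hydroxylase and belongs to the dioxygenases that use iron and 2-oxoglutarate. In whole skin, RNA of such genes may come from epidermis, hair follicle, dermis, fat, muscle or blood, and in bulk tissue fewer cells of a type and less RNA per cell cannot be told apart.

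The genes lie on chromosomes 10, 11, 4, 7 and 2 in the order Rtkn2, Chac2, Taf12, Prrg2 and Phyhd1. Promoter sequences are shown because genes with a shared pattern could share letters there, and RefSeq sequence of build GRCm38.p6 was at hand for 4 of the 5 genes. Each runs from 250 bases before the start site to 50 after it, and capitals mark motifs found on either strand.
Chac2, chr11:30986316-30986615, minus strand: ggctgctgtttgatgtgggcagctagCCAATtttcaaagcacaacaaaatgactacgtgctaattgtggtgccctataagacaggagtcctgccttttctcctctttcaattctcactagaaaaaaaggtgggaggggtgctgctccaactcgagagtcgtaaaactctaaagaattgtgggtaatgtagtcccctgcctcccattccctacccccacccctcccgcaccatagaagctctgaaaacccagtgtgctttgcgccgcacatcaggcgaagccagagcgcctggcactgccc
Taf12, chr4:132274125-132274424, plus strand: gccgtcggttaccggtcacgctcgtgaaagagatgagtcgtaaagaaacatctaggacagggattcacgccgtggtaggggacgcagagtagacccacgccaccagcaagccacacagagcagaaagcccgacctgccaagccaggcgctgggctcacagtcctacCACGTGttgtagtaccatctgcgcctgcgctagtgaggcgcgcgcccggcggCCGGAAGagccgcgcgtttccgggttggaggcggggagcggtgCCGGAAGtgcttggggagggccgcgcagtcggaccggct
Prrg2, chr7:45061603-45061902, minus strand: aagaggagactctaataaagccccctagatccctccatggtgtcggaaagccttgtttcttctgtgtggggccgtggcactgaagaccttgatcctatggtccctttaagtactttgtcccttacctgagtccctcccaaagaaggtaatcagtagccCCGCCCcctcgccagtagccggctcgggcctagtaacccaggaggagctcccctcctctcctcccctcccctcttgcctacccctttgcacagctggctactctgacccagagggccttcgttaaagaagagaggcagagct
Phyhd1, second of 3 start sites, chr2:30266471-30266770, plus strand: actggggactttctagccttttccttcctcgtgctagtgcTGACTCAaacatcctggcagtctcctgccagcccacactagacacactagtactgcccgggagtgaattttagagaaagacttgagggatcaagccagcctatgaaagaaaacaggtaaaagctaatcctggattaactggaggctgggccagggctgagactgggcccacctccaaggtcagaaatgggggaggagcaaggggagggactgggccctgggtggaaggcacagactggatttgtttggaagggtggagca
The capitals are a CCAAT box (CCAAT) at -224 of Chac2, an E-box (CACGTG) at -84 and ETS letters (CCGGAAG) at -32 and 12 of Taf12, a GC box (GGGCGG) on the opposite strand at -92 of Prrg2, and AP-1 letters (TGACTCA) at -210 of Phyhd1, each position being that of the first base from the start site. A TATA box (TATAAA) was searched too and lay in 0 of the 6 promoter windows of these genes. None of these motifs stood in more than 1 of the 4 genes. Of the 3 Phyhd1 windows, the one shown is the only one with a match to any of them. Of all 32851 promoter windows of this length, 37.4% held CCAAT, 35.7% the GC box, 13.6% TATAAA, 8.86% the ETS letters, 7.15% the E-box and 5.20% the AP-1 letters. Base composition differed too, with 65.3% G or C and 32 CG pairs in Taf12, against 8 pairs in Chac2, 7 in Prrg2 and 2 in this window of Phyhd1. These are matches of letters and not sites shown to be used.

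The library labelled Normal Skin-1 stood apart from the other skins and touches every value below. Over 16718 probes its median absolute difference from the carcinoma SCC-6 was 0.065 log2 units, with r = 0.984 across probes, where the next closest pair of arrays differed by 0.177. Its correlation across tested probes was 0.425 to 0.568 with the other 5 skins, which correlated at 0.668 to 0.876 among themselves, and 0.466 to 0.782 with the other 5 carcinomas. Results are therefore given with and without it. The 31 labelled replicates also fell into 5 sets by which probes were empty. The skins 3 to 6 shared a set with 1 tumour, High Risk-10, Normal Skin-2 shared one with 12 tumours of all 3 groups, and Normal Skin-1 lay with 4 high-risk papillomas and 2 carcinomas, SCC-6 among them.

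Rtkn2 was high in 5 of 6 skins and near or below the reference in the tumours. It ran from -0.81 through a median of 0.18 to 0.54 in the carcinomas, from -0.60 through -0.32 to 0.27 in the high-risk papillomas and from -2.05 through -1.05 to -0.35 in the low-risk papillomas. The skins 2 to 6 had 3.20, 3.52, 2.98, 3.91 and 3.20, and Normal Skin-1 had 0.32. The 5 skins lay above all 25 tumours, the closest being SCC-2, by 2.43, and the low-risk papillomas were the lowest of the tumour groups. Rtkn2 averaged 0.09 ± 0.46 in carcinomas (SD, n = 6), -0.20 ± 0.29 in high-risk papillomas (n = 10), -0.997 ± 0.51 in low-risk papillomas (n = 9) and 2.86 ± 1.28 in skin (n = 6). Without Normal Skin-1 the skin mean was 3.36 ± 0.36 (n = 5).

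Chac2 was the gene with the least spread among the carcinomas. It ran from 0.00 through 0.13 to 0.51 in carcinomas, from -1.22 through 0.19 to 0.65 in high-risk papillomas and from -1.42 through 0.43 to 1.07 in low-risk papillomas. The skins 2 to 6 had 4.16, 3.42, 4.18, 3.72 and 4.24, and Normal Skin-1 had 0.59. The 3 tumour groups overlapped one another through nearly all of their ranges, and 2.35 units separated the highest tumour, Low Risk-6, from the lowest of the 5 skins. The group means were 0.17 ± 0.19 in carcinomas, 0.06 ± 0.52 in high-risk papillomas, 0.33 ± 0.72 in low-risk papillomas and 3.39 ± 1.41 in skin, or 3.95 ± 0.36 without Normal Skin-1, with the same numbers of samples as for Rtkn2.

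Taf12 showed the farthest separation of Normal Skin-1 from the other skins. It ran from -0.52 through -0.25 to 0.22 in carcinomas, from -0.79 through -0.14 to 0.47 in high-risk papillomas and from -0.69 through 0.35 to 1.83 in low-risk papillomas. The skins 2 to 6 had 3.88, 3.25, 3.97, 4.32 and 3.69, and Normal Skin-1 had -0.57. Low Risk-9 was the highest tumour and still lay 1.42 below the lowest of the 5 skins, while Normal Skin-1 was lower than all 6 carcinomas. Means were -0.24 ± 0.27 in carcinomas, -0.12 ± 0.42 in high-risk papillomas, 0.35 ± 0.78 in low-risk papillomas and 3.09 ± 1.82 in skin, or 3.82 ± 0.39 without Normal Skin-1.

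Prrg2 had the narrowest gap of the 5 genes between skins and tumours. Its probe used in the fit ran from -0.20 through 0.04 to 0.65 in carcinomas, from 0.01 through 0.25 to 0.72 in high-risk papillomas and from -0.60 through 0.64 to 1.92 in low-risk papillomas. The skins 2 to 6 had 3.504, 2.78, 3.34, 3.54 and 3.46, and Normal Skin-1 had 0.48. Low Risk-2 at 1.92 came within 0.86 of the lowest of the 5 skins. The means were 0.15 ± 0.30 in carcinomas, 0.31 ± 0.24 in high-risk papillomas, 0.63 ± 0.68 in low-risk papillomas and 2.85 ± 1.19 in skin, or 3.33 ± 0.31 without Normal Skin-1. The second Prrg2 probe gave a smaller separation, with means of 0.18 ± 0.24 in carcinomas, 0.36 ± 0.43 in high-risk papillomas, 0.30 ± 0.48 in low-risk papillomas and 1.41 ± 0.90 in skin. On it the lowest of the 5 skins, Normal Skin-4 at 1.00, lay within the range of the tumours, whose highest value was 1.01. Across the 31 replicates both probes correlated at r = 0.76, and across the 25 tumours at 0.34.

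Phyhd1 was the most variable of the 5 genes within the papillomas. It ran from -1.62 through -0.66 to 0.21 in carcinomas, from -4.45 through -0.94 to 0.04 in 9 high-risk papillomas and from -3.45 through -0.20 to 0.53 in low-risk papillomas. High Risk-8 has no value for it and entered no Phyhd1 comparison. The skins 2 to 6 had 2.90, 1.499, 2.83, 2.53 and 2.85, and Normal Skin-1 had -0.29. High Risk-3 and Low Risk-8 were far below the rest of their groups, and the highest tumour, Low Risk-9, lay 0.97 below the lowest of the 5 skins. Phyhd1 averaged -0.96 in 4 carcinomas and -1.94 in 5 high-risk papillomas of the set of Normal Skin-2, and -0.02 in 2 carcinomas and -0.16 in 3 high-risk papillomas of the set of Normal Skin-1. Means were -0.65 ± 0.64 in carcinomas, -1.18 ± 1.37 in high-risk papillomas, -0.64 ± 1.25 in low-risk papillomas and 2.05 ± 1.26 in skin, or 2.52 ± 0.59 without Normal Skin-1.

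**Figure D1:**
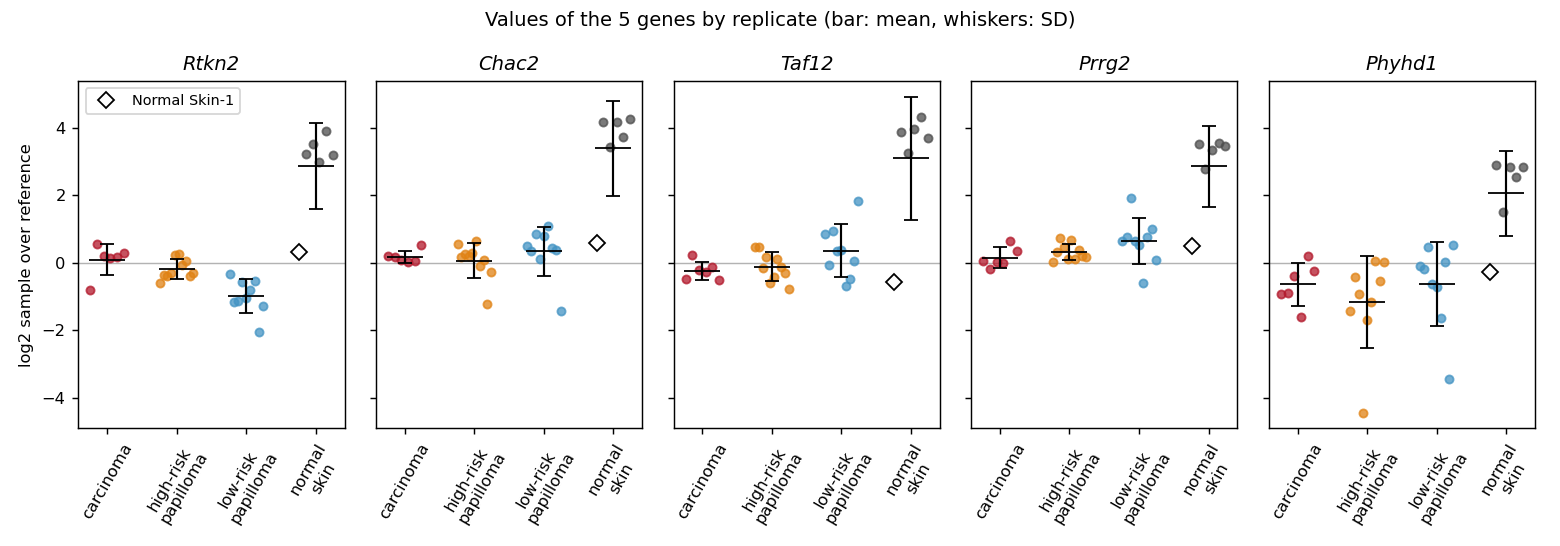
Each panel shows 1 gene by its probe used in the fit, with log2 of sample over reference on the vertical axis, 1 point per replicate, and the mean and SD of each group. In every panel 5 filled skin points lie above all tumour points, and Normal Skin-1, the open diamond, lies among the tumours.

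Fitted with limma in 1 model of the 4 groups, with 1 probe per gene, the tumour groups lay 2.22 to 3.85 log2 units below skin. For Prrg2 this was the probe with the larger separation. The carcinoma differences from skin were -2.77 ± 0.38 (SE) for Rtkn2, -3.22 ± 0.44 for Chac2, -3.33 ± 0.52 for Taf12, -2.71 ± 0.38 for Prrg2 and -2.70 ± 0.65 for Phyhd1. Those of the high-risk papillomas were -3.05 ± 0.34, -3.33 ± 0.39, -3.21 ± 0.46, -2.54 ± 0.34 and -3.23 ± 0.60 in the same order of genes. Those of the low-risk papillomas were -3.85 ± 0.35, -3.05 ± 0.40, -2.74 ± 0.47, -2.22 ± 0.34 and -2.69 ± 0.60. On the linear scale these are ratios 4.65-fold to 14.5-fold lower, Prrg2 and Rtkn2 in the low-risk papillomas being at the ends. Without Normal Skin-1 the same 2 were at the ends, at 6.46-fold and 20.5-fold lower. Leaving it out moved Taf12 by the largest factor, 1.66, to -4.06 ± 0.33 in carcinomas, -3.94 ± 0.30 in high-risk papillomas and -3.47 ± 0.30 in low-risk papillomas. The ratios of the other 4 genes grew by factors of 1.38 to 1.47. Among 18904 probes ordered from the largest decrease, the 5 genes held ranks 2 to 14 in carcinomas, 12 to 70 in high-risk papillomas and 3 to 119 in low-risk papillomas. Of all probes tested, 0.598% were below skin in each of the 3 groups past an adjusted p of 0.05, and the 5 genes were picked from these. The 3 comparisons share the 6 skins, Normal Skin-1 among them.

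With all 6 skins, 0 of the 5 genes had every tumour below every skin, and over all probes that could be compared the share was 0.0249%. Without Normal Skin-1 all 5 had it on the probes used in the fit, against 0.505% of probes, the choice of genes having used the same values. On the second Prrg2 probe it did not hold, the lowest of the 5 skins being at 1.00 and the highest tumour at 1.01. Values within array sets are given as a description only, since the choice of genes used these same values. Each set that held both skins and tumours had only 1 skin or only 1 tumour. The share of all probes with such a gap within a set was not counted. In the set of Normal Skin-2, 12 tumours reached at most 0.54 for Rtkn2, against 3.20 in that skin. The same 12 tumours reached 1.07 for Chac2, 0.45 for Taf12, 0.76 for Prrg2 and 0.03 for Phyhd1, and that skin had 4.16, 3.88, 3.504 and 2.90. In the set of the skins 3 to 6, High Risk-10 had -0.36 for Rtkn2, 0.17 for Chac2, 0.47 for Taf12, 0.31 for Prrg2 and -0.42 for Phyhd1, below all 4 skins in each case. In the set of Normal Skin-1 the median difference of the 5 genes from that skin was 0.015 in carcinomas and -0.28 in high-risk papillomas.

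Normal Skin-1 lay 7.0-fold to 20.9-fold below the mean of the other 5 skins. It was 8.23-fold lower for Rtkn2, 10.2-fold for Chac2, 20.9-fold for Taf12, 7.18-fold for Prrg2 and 6.99-fold for Phyhd1. SCC-6 differed from it by -0.04 for Rtkn2, -0.08 for Chac2, 0.04 for Taf12, -0.14 for Prrg2 and 0.04 for Phyhd1, which is less than the SD of any gene in any group. Without Normal Skin-1 the SD of skin was 0.36 for Rtkn2 and 0.39 for Taf12, against 1.28 and 1.82 with it. Whether the 2 arrays hold the same RNA was not tested.

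**Figure D2:**
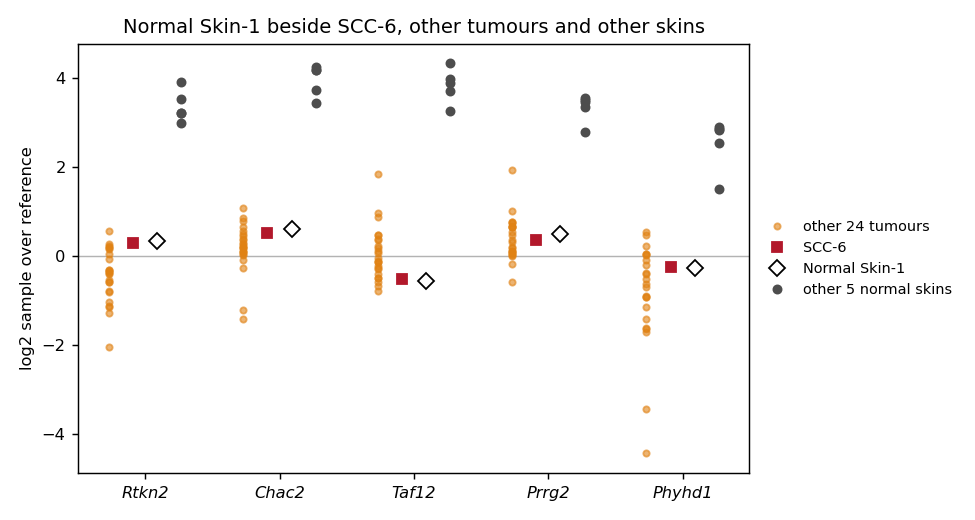
For each gene, log2 of sample over reference is shown for the other 24 tumours (23 for Phyhd1), for SCC-6, for Normal Skin-1 and for the other 5 normal skins, from left to right. The square of SCC-6 and the diamond of Normal Skin-1 lie within 0.14 of each other for every gene, far below the other skins.

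Granulocyte and erythrocyte markers also set Normal Skin-1 apart from the other 5 skins. The mean of 9 granulocyte markers, of 10 listed, ran from 0.36 to 1.25 in carcinomas, from 0.20 to 1.49 in high-risk papillomas and from -0.22 to 1.30 in low-risk papillomas, against -0.38 to 0.29 in the 5 skins, and Normal Skin-1 had 0.83. The mean of 4 erythrocyte markers, of 7 listed, ran from -1.47 to 0.02 in carcinomas, from -1.70 to 0.43 in high-risk papillomas and from -1.81 to -0.24 in low-risk papillomas, against -2.83 to -2.02 in the 5 skins and -0.87 in Normal Skin-1. So in the erythrocyte list the 5 skins lay below all tumours, and Normal Skin-1 lay within the tumour range. The mean of 8 hair follicle markers, of 12 listed, ran from 0.24 to 0.45, from 0.13 to 0.77 and from -0.45 to 1.63 in the 3 tumour groups in the same order, against 0.13 to 2.37 in the 5 skins and 0.39 in Normal Skin-1. The mean of 8 skeletal muscle markers, of 12 listed, ran from 0.18 to 0.92, from -0.33 to 0.88 and from -0.71 to 0.82, against -0.03 to 2.12 in the 5 skins and 0.21 in Normal Skin-1. The mean of 9 adipocyte markers, of 12 listed, ran from 0.09 to 0.46, from -0.95 to 0.51 and from -0.30 to 0.79, against -0.03 to 0.64 in the 5 skins and 0.32 in Normal Skin-1. The median adipocyte marker differed from skin by -0.40 in carcinomas, -0.83 in high-risk papillomas and -0.53 in low-risk papillomas. Lower past the threshold were 1, 2 and 3 of 9 in the same order, where 0.905%, 2.44% and 3.61% of all probes were. In low-risk papillomas 1 of 9 was higher, where 3.94% of all probes were. The fall was not particular to adipocyte markers. The median skeletal muscle marker differed by -0.38, -0.64 and -0.84 in the same order, with 0, 2 and 2 of 8 lower. For hair follicle markers the median was -0.47, -0.61 and -0.37, with 1 of 8 lower in each group. Sebaceous gland markers went the other way, at 0.52, 0.31 and 0.75, with 0 of 6 past the threshold. The mean of 14 epidermal markers, of 16 listed, was above 0 in all 31 replicates, at 1.22 to 2.13 in the 5 skins and 1.65 in Normal Skin-1. Log ratios have no zero level, so absent markers cannot be read from them, and the part of these cell types in the 5 genes was not tested.

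The genes were not chosen by comparisons between the tumour groups. The same tumour values entered the choice, however, so these comparisons are not independent of it. In carcinomas against high-risk papillomas, 0 of the 5 genes passed an adjusted p of 0.05 in limma, where 0.0423% of all probes did. Against low-risk papillomas 0 of 5 passed in carcinomas, with 1.12% of all probes, and 0 of 5 in high-risk papillomas, with 0.667% of all probes. All but 1 of the genes had differences within 0.60 of 0 in each of these comparisons. Rtkn2 was the exception.

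Rtkn2 was higher on average in carcinomas and in high-risk papillomas than in low-risk papillomas, without passing the threshold with all replicates. The carcinoma mean exceeded the low-risk mean by 1.08 ± 0.35, a ratio of 2.12, with a 95% interval of 0.37 to 1.79 and an adjusted p of 0.106 in limma. With both arrays of 1 tumour averaged, 5 of 6 carcinomas lay above all 9 low-risk papillomas, and only SCC-1 at -0.81 was within their range. That tumour had 1.31 on its Low Risk-1 array alone, above the highest carcinoma at 0.54, so the separation depends on the averaging. The share of all probes with such a separation was not counted. The high-risk mean exceeded the low-risk mean by 0.80 ± 0.30, with a 95% interval of 0.18 to 1.42 and an adjusted p of 0.170 in limma. The carcinoma mean exceeded the high-risk mean by 0.28 ± 0.34, with a 95% interval of -0.41 to 0.98 and an adjusted p of 0.795.

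Normal Skin-1 entered these values through the estimate of spread that all 4 groups share. Without it the carcinoma difference from low-risk papillomas stayed at 1.08, its SE was 0.23, and limma's adjusted p was 0.0187, past the threshold. Without both Normal Skin-1 and SCC-6 the difference was 1.04 with an adjusted p of 0.0397. Fitted on these 2 groups alone the adjusted p was 0.0787. With the array set as a block it was 0.602 for a difference of 1.03, and within the set of Normal Skin-2, which held 4 carcinomas and 3 low-risk papillomas, the difference was 0.86 with an adjusted p of 0.527. The adjusted p of Rtkn2 in high-risk against low-risk papillomas was 0.0519 without Normal Skin-1.

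One low-risk tumour was hybridised on 2 arrays, as Low Risk-1 and with the dyes swapped as Low Risk-3, and the 2 arrays disagreed most on Rtkn2. Low Risk-1 gave 1.31 and the swapped array -1.999, so the mean of -0.35 used for the tumour rests on values far apart. Across all probes the 2 arrays correlated at r = 0.306. For Chac2 they gave 0.56 and 0.40, for Taf12 0.07 and 1.65, for Prrg2 1.30 and -0.04 and for Phyhd1 0.89 and -1.11. With the swapped array left out, the Rtkn2 difference of carcinomas from low-risk papillomas was 0.90 with an adjusted p of 0.285.

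The other 4 genes gave wide intervals between tumour groups. For Chac2 the carcinoma mean differed from the low-risk mean by -0.17, with a 95% interval of -0.99 to 0.65. For Taf12 that difference was -0.59, with an interval of -1.55 to 0.37. Prrg2 gave -0.49, with an interval of -1.19 to 0.21, and Phyhd1 gave -0.01, with an interval of -1.23 to 1.21. These intervals hold changes of 1 unit downward for Taf12 and Prrg2, and of 1 unit in both directions for Phyhd1. Limma's adjusted p for these 4 genes lay between 0.504 and 0.994 in this comparison.

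**Figure D3:**
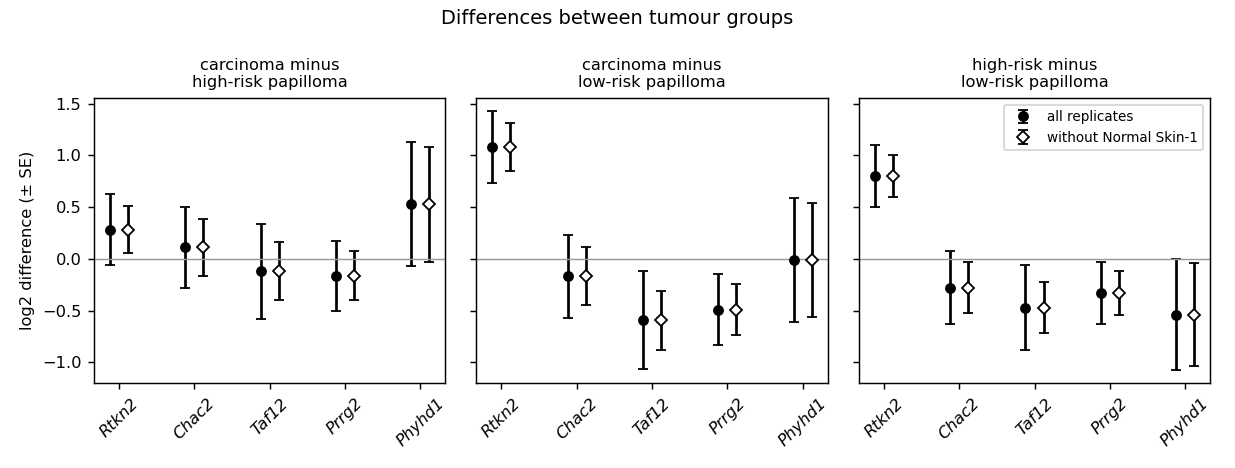
The log2 difference between tumour groups and its SE is shown for each gene, with all replicates as filled circles and without Normal Skin-1 as open diamonds. The estimates are the same in both, and the error bars are shorter without that array, for Rtkn2 0.23 in place of 0.35 in the middle panel.

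The genes tracked each other across all labelled replicates but not within the labelled tumours. Over the 31 labelled replicates the 10 pairs of genes had Pearson's r of 0.70 to 0.91, with a median of 0.81, the highest being Chac2 with Prrg2. Spearman's rank correlation over the same replicates was 0.17 to 0.60, with a median of 0.38. Over the 25 tumours alone, r ran from -0.39 to 0.29 with a median of 0.05, and 5 of 10 pairs were above 0. Rtkn2 with Taf12 gave the lowest value and Taf12 with Prrg2 the highest. The correlation over all replicates thus rests on the 5 high skins against the other samples. The genes were chosen on these arrays for lying lower in tumours than in skin, so a high r over all replicates was set by that choice.

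Removing the group means left r at 0.23 to 0.70, and removing them without Normal Skin-1 left -0.33 to 0.26, with a median of 0.13. Within the single groups the median r of the 10 pairs was 0.07 in carcinomas, 0.00 in high-risk papillomas and 0.18 in low-risk papillomas, over 6, 9 or 10, and 9 samples. Each gene correlated with the mean of the other 4 at 0.78 to 0.92 over all replicates and at -0.22 to 0.19 over the tumours. The replicates share the reference RNA and, in part, the array set, and these correlations are descriptions with no test. The median of the 5 genes in a replicate ran from -0.50 to 0.29 in carcinomas, from -0.35 to 0.27 in high-risk papillomas and from -0.69 to 0.84 in low-risk papillomas, against 3.25 to 3.72 in the 5 skins.

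**Figure D4:**
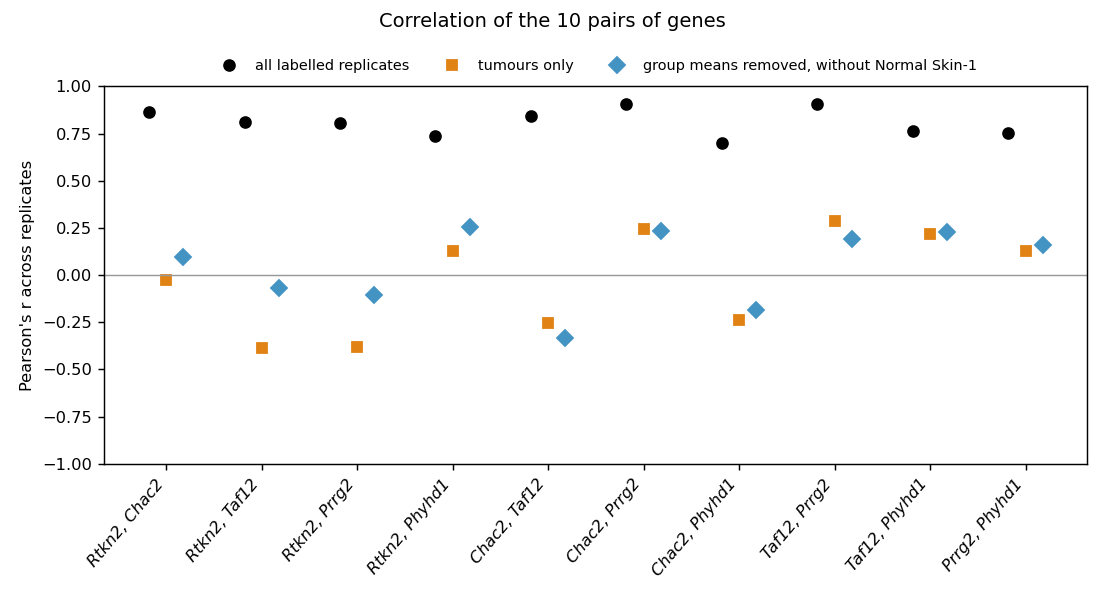
Pearson's r is shown for the 10 pairs of genes over all 31 labelled replicates (circles), over the 25 tumours (squares) and after removal of the group means without Normal Skin-1 (diamonds). The circles lie at 0.70 to 0.91, and squares and diamonds lie on both sides of 0.

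Other genes shared the pattern over all replicates. Among 4206 genes measured in all 31 replicates, those most correlated with the mean of the 5 genes were Cinp, a partner of cyclin-dependent kinase 2, at r = 0.86, Krt34, a hair keratin, at 0.83, Ift20, a protein of transport along cilia, at 0.83, Nit1, which clears deaminated glutathione, at 0.83, Slc25a12, a mitochondrial aspartate and glutamate carrier, at 0.82, and Tlcd3b at 0.81. Over the tumours alone their r was 0.44, 0.37, 0.38, 0.21, 0.37 and 0.80. Cinp averaged 0.08 ± 0.18 in carcinomas, 0.10 ± 0.48 in high-risk papillomas, 0.53 ± 0.52 in low-risk papillomas and 1.67 ± 0.91 in skin, with -0.01 in Normal Skin-1. Krt34 was at -0.07 in Normal Skin-1 and at 2.14 to 3.99 in the other skins, and its tumours reached 1.68, so no tumour reached the lowest of the 5 skins.

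Single genes had other neighbours. Myo1a, the brush-border myosin, was closest to Rtkn2 at r = 0.86 and to Chac2 at 0.83, followed by Ppp1r27, a regulator of protein phosphatase 1, for Rtkn2 at 0.84 and 2010203P06Rik for Chac2 at 0.83. Nit1 and Cinp were closest to Taf12 at 0.88 and 0.87, and Ift20 and Cinp to Prrg2 at 0.91 and 0.89. Over the 25 tumours, which are among the replicates that chose it, Ift20 had an r of 0.76 with Prrg2. Serpina1c, a serum protease inhibitor of a family of near-identical copies that a probe may not tell apart, was closest to Phyhd1 at 0.87, and Tlcd3b followed at 0.84.

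Relatives of the 5 genes were read in the same fit. Rtkn differed from skin by 0.09 ± 0.41 in carcinomas, 0.29 ± 0.37 in high-risk papillomas and 0.35 ± 0.38 in low-risk papillomas. Of 13 Gla-domain proteins tested in limma, 0 passed in any of the 6 comparisons, where 0.0423% to 7.55% of all probes did, so a count of 0 is near the background. Their median differed from skin by 0.16, -0.01 and 0.03 in the order carcinomas, high-risk and low-risk papillomas, and Prrg1 differed from skin by 0.16, -0.28 and -0.83 in the same order. Of 12 TFIID genes 1 passed, Taf7, which rose by 1.31 in low-risk papillomas against skin with an adjusted p of 0.0190 in limma. In that comparison 7.55% of all probes passed in either direction, so 1 of 12 is near the background, and the median of the 12 was 0.36. Tbp, the subunit that binds the TATA box, differed from skin by 0.36, 0.03 and -0.06, Taf11 by -0.54, -0.18 and -0.27, and Taf13, a partner of Taf11, by -0.62, -0.52 and 0.10. Without Normal Skin-1 and SCC-6, Taf7 also rose in high-risk papillomas against skin, by 1.11 (adjusted p = 0.0442), as did Taf1 by 0.82 (adjusted p = 0.0484), both in limma. Of all probes 7.21% passed in that comparison without the pair, 2.56% in carcinomas and 8.07% in low-risk papillomas against skin.

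Among 10 genes of glutathione turnover some were higher in tumours than in skin. Chac1, which degrades glutathione like Chac2, rose by 0.88 in high-risk papillomas (adjusted p = 0.0186) and by 0.84 in low-risk papillomas (adjusted p = 0.0207), both in limma. Its difference in carcinomas was 0.40 with an adjusted p of 0.627. Ggt6, of the gamma-glutamyltransferase family, rose by 1.02 in high-risk papillomas (adjusted p = 0.0264) and by 0.92 in low-risk papillomas (adjusted p = 0.0301). Gsr, which reduces oxidised glutathione, rose by 1.65 in carcinomas against skin (adjusted p = 0.0196) and by 1.65 against high-risk papillomas (adjusted p = 0.0498). Past the threshold were 1 of 10 in carcinomas, 2 of 10 in high-risk and 2 of 10 in low-risk papillomas against skin, each upward, where 0.254%, 2.57% and 3.94% of all probes were. The median of the 10 differed from skin by 0.15, -0.01 and 0.24, and the median of all probes by 0.00, 0.00 and -0.02. Without Normal Skin-1 and SCC-6, Ggct, a gamma-glutamylcyclotransferase like Chac2, passed too in limma, with rises of 1.89 in high-risk papillomas (adjusted p = 0.0487) and 2.00 in low-risk papillomas (adjusted p = 0.0369), so that 3 of 10 passed in each. Of all 18904 probes, 670 and 774 were higher past the threshold in these 2 comparisons without the pair.

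Among 15 dioxygenases that use 2-oxoglutarate, P4ha2, a collagen prolyl hydroxylase, fell by 0.80 in high-risk papillomas (adjusted p = 0.0313) and by 0.97 in low-risk papillomas (adjusted p = 0.00891), both against skin in limma. Egln3, an oxygen-sensing prolyl hydroxylase, fell by 1.44 in high-risk against low-risk papillomas with an adjusted p of 0.0380. Phyh, the peroxisomal enzyme after which Phyhd1 is named, differed from skin by -0.05 in carcinomas, 0.67 in high-risk papillomas and 0.60 in low-risk papillomas, none past the threshold. Past it against skin were 0 of 15 in carcinomas, 1 in high-risk and 1 in low-risk papillomas, where 1.16%, 5.01% and 7.55% of all probes passed in either direction. In high-risk against low-risk papillomas 1 of 15 passed, where 0.667% of all probes did. The median of the 15 differed from skin by 0.14, -0.13 and -0.05. Without Normal Skin-1 and SCC-6, P4ha2 also fell in carcinomas, by 1.11 (adjusted p = 0.0138). Ogfod2, another member of the list, then fell by 1.37 in carcinomas (adjusted p = 0.0375) and by 1.17 in high-risk papillomas (adjusted p = 0.0223), and Plod2, a collagen lysyl hydroxylase, rose by 1.34 in high-risk papillomas (adjusted p = 0.0384), all in limma. Of all probes, 2.56% passed in carcinomas and 7.21% in high-risk papillomas against skin without the pair. The lists were chosen with earlier results of these arrays known, and their counts are a description.

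In the 10 papillomas without a risk label, which lie on the second design and have no skin beside them, Chac2 ran from -0.68 through a median of 0.21 to 2.57. Unknown 8 had the highest value and Unknown 5 the next, 1.58, while the other 8 lay at 0.65 or below. The 3 Taf12 probes ran from -2.67 through -0.55 to 0.22, from -1.15 through -0.56 to 1.02 and from -1.62 through -0.29 to 0.33. Between these 3 probes Pearson's r was -0.03 to 0.18 and Spearman's rank correlation 0.19 to 0.38. The lowest value, -2.67 in Unknown 6, stood on 1 of the 3 probes, the others giving -0.61 and -0.32 there. Prrg2, measured in 9 papillomas, ran from -1.30 through 0.01 to 1.47. The 7 pairs of probes of different genes had r of -0.10 to 0.63, with a median of 0.26. Prrg2 with the 3 Taf12 probes gave 0.51 to 0.63 over 9 papillomas, with Spearman's rank correlation of 0.45 to 0.82. The pairs with Chac2 gave r of -0.10 to 0.26. Probes of the 2 designs differ, so these levels were not set against those of the labelled groups.

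**Figure D5:**
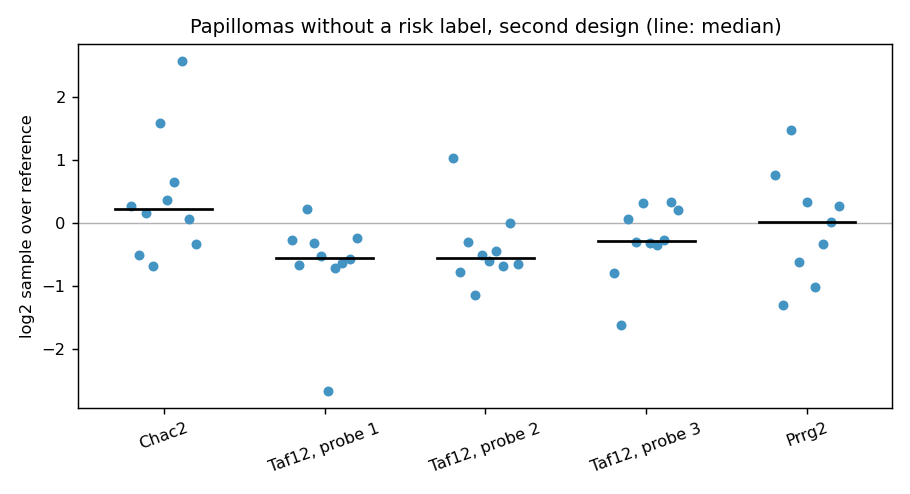
Each point is 1 papilloma without a risk label, and each column 1 probe of the second design, with log2 of sample over reference on the vertical axis and a line at the median. The medians lie between -0.56 and 0.21, and Chac2 has 1 papilloma at 2.57.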

How the data were processed

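Whole-tissue RNA of 41 skins and tumours on 42 arrays was analysed, of which 31 replicates had a group. The values, as deposited, are ratios of both channels on a log2 scale. The authors' scanner processing, normalization and log base are not given in the sources used here, nor is the direction. The largest size of a value was 15.02, which leaves base 2 as the likely one. The reference was in Cy5, per the labels, except on 1 array with swapped dyes. Here, all arrays but that one were negated and each was centred on its median, and both arrays of 1 tumour were averaged. A probe was tested with at least 3 values per group and values in 70% of replicates, 1 probe per symbol (the one with most values, the first in the file if tied). Limma 3.58.1 (R 4.3.3) fitted 4 groups with Benjamini-Hochberg adjustment over 18904 probes at 0.05, and was tested on simulated data. Names came from the platform annotation, which gives 1 symbol to 16076 probes of the first design, several to 288 and none to 5633. The only Phyhd1 probe of the second design names a second gene too and was not used, and no probe there names Rtkn2 alone.

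The genes, lists and tests were chosen with earlier results of these data known. Also named are the 6 genes most correlated with the mean of the 5, the 2 most correlated with each, close relatives, and list members past the threshold. Array sets were cut at 5 from the pattern of empty probes. Alternatives were other scalings, filters, blocks and probe summaries, other treatments of the swapped array, fits within sets, and leaving out each replicate or the near-identical pair. Replicate numbers did not pair samples: same-numbered samples of different groups had a median r of -0.0245 over 37 pairs, against 0.0100 over 317 other pairs.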

Additional observations from a re-analysis of the deposited data

Results flagged for a closer look

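In 8 of 20 groups, counting each gene in each labelled group, 1 sample lay farther from its neighbour than a 95% limit for single outliers allows. Such a limit is passed by chance in about 1 of 20 independent groups, but these groups share samples and the genes were chosen on these arrays for high skins and low tumours, so their number is not set against chance. Normal Skin-1 was this sample for 4 genes, at 0.32 for Rtkn2, 0.59 for Chac2, -0.57 for Taf12 and 0.48 for Prrg2, with the nearest other skin at 2.98, 3.42, 3.25 and 2.78. In carcinomas SCC-1 was low for Rtkn2 at -0.81, with the next lowest at 0.14. For Chac2, High Risk-8 was low at -1.22 and Low Risk-9 at -1.42, with the next lowest of their groups at -0.28 and 0.09. For Phyhd1, High Risk-3 was low at -4.45, with the next lowest at -1.72. Low Risk-9 was the only array of its set, and its values for Taf12 and Phyhd1 were the highest of the tumours.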

How the results depend on the processing

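Between tumour groups, 0 of 5 genes passed under each alternative run except that 1 (Rtkn2, carcinomas against low-risk papillomas) passed without the near-identical pair and without Normal Skin-1, so that leaving out 1 replicate gave 0 to 1. Over its alternatives the adjusted p of that difference ran from 0.0187 to 0.602 and the difference from 0.86 to 1.32. Between tumour groups signs turned only for differences under 0.60 in size that passed under no setting. In carcinomas against high-risk papillomas, Chac2 became -0.27 within the set of Normal Skin-2 and Prrg2 0.29 within that of Normal Skin-1, and leaving out 1 replicate gave -0.031 to 0.18 for Chac2. In carcinomas against low-risk papillomas, Phyhd1 became 0.052 with no centring, 0.099 with the swapped array in place of Low Risk-1 (chosen after seeing the data) and 0.42 with the range of database numbers as a block, and Taf12 became 0.41 with the array set as a block and 0.22 within the set of Normal Skin-2, while leaving out 1 replicate gave -0.36 to 0.18 for Phyhd1. In high-risk against low-risk papillomas, Prrg2 became 0.062 and 0.083 under the last 2 settings, and Taf12 0.45 and 0.31, or 0.074 with the database range as a block. With the replicate number as a block, which the data do not show to pair the samples, Chac2 was -0.16 in carcinomas against high-risk and Phyhd1 0.18 in carcinomas against low-risk papillomas, and no call changed. That block gave 7 calls over all probes in carcinomas against high-risk, 212 in carcinomas against low-risk and 112 in high-risk against low-risk papillomas.

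Against skin, the median of the 5 genes was -2.77 in carcinomas, -3.21 in high-risk and -2.74 in low-risk papillomas. Within the set of Normal Skin-1, that being its only skin, it was 0.0145 in carcinomas (Phyhd1 0.27, Prrg2 0.0145, Taf12 0.23) and -0.28 in high-risk papillomas (Phyhd1 0.12, Taf12 0.29). It was -3.86 in carcinomas and -3.54 in low-risk papillomas within the set of Normal Skin-2, -2.45 and -2.55 in high-risk papillomas with the database range and the array set as blocks, and -3.58 with quantile normalization and -3.47 without the pair in low-risk papillomas. Leaving out 1 replicate gave -3.28 to -2.61 in carcinomas, -3.70 to -2.96 in high-risk and -3.47 to -2.56 in low-risk papillomas.

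Counts over all probes moved more than the 5 genes. For carcinomas against high-risk papillomas the count was 8, against 70 after scale and 95 after quantile normalization, 28 and 25 with the database range and array set as blocks, and 1 from these 2 groups alone. For carcinomas against low-risk papillomas it was 212, against 116 after scale normalization and 3 with the array set as a block. For high-risk against low-risk papillomas it was 126, against 37, 65, 12 and 0 in that order of scalings and blocks and 0 from 2 groups alone, where 2535 and 2180 probes had an unadjusted p under 0.05. Within the set of Normal Skin-2 these 3 counts were 197, 0 and 0, with 1626 and 3281 probes at an unadjusted p under 0.05 in the last 2. Leaving out 1 replicate gave 0 (without SCC-2, SCC-3 or High Risk-2, with 1388 to 1558 probes at an unadjusted p under 0.05) to 35, 51 (without SCC-3) to 731 (without Low Risk-6) and 60 (without Low Risk-1) to 718 (without High Risk-5). Against skin the counts were 219 in carcinomas, 948 in high-risk and 1427 in low-risk papillomas, and over settings that keep all array sets, without leaving out single replicates, they ran from 22 to 890, 83 to 1794 and 9 to 1751. The causes were not tested.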
